A study of Homo sapiens with 6 samples.

Results

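Semaphorins are guidance ligands, plexins are their signalling receptors and neuropilins are coreceptors that bind secreted ligands. The 31 human genes of these families were picked by gene symbol from a table of 35639 genes, and all 31 were found there once: 20 semaphorins, 9 plexins and 2 neuropilins. The table holds bulk RNA-seq of hFOB 1.19, an osteoblast line of human fetal origin that divides at 34 °C, where its heat-labile SV40 large T antigen is active, and that was kept at that temperature. The cells were transduced with a lentiviral vector that expresses dTomato alone (EV, the empty vector) or dTomato behind an HA-tagged Drosophila His3.3A cDNA, either wild-type (H3.3-WT, here WT) or with glycine 34 changed to tryptophan (H3.3-G34W, here G34W). Each line was a pooled population sorted for dTomato, and cells were collected in duplicate 15 days after transduction, so that 2 libraries stand for each group. The study reports several infections for its hFOB work and uses the word replicates for biological ones within an experiment, such as separate wells. It does not say from which infection each of these duplicates came, so that tests over the duplicates measure the spread between libraries. The endogenous histone genes were left in place, and the transgene is a fly cDNA, so that its level cannot be read from the human gene table. Groups follow the library titles and the matching column names, while the labels' genotype field swaps WT with G34W; if that field were right, each difference of G34W from WT would change sign.

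Plexins carry a domain inside the cell that switches off small Ras-family GTPases, so that ligand binding reshapes the cytoskeleton and adhesion. Class 3 semaphorins are secreted and mostly act through neuropilins paired with A plexins, whereas class 4 to 7 semaphorins are tied to the membrane and bind plexins directly. In bone, SEMA4D released by osteoclasts acts on plexin B1 (PLXNB1) of osteoblasts and restrains bone formation, and SEMA3A made by osteoblasts acts through NRP1 to protect bone mass.

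The values are the authors' normalised signal, estimated read counts per gene scaled to a common level between libraries. The signal summed to between 38821143 and 48024590 per library in the 5 libraries compared, which are EV replicate 2 and both replicates of WT and G34W; the number of reads behind each value is not known. EV replicate 1 was left out: 80.5% of all genes and 25 of the 31 family genes are listed at 0 there. EV therefore rests on 1 library, and its spread was taken to be that of the other groups.

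G34W replicate 1 stood apart from the other libraries. All 10 genes of a list of pluripotency markers were at more than 2 times their level in any other compared library, and their summed signal was 64990 there against 1089 in EV replicate 2, 932 and 1041 in the WT libraries and 894 in G34W replicate 2. POU5F1 was the most abundant of them in that library, at 19441, whereas it lay between 41.6 and 75.4 in the other 4. The epithelial markers EPCAM, CDH1 and ESRP1 were also high in it, at 2175, 2104 and 963, against at most 46.6, 64.9 and 12.4 elsewhere, although the list of 5 was dominated by KRT18 and summed to 27244, within the 20702 to 29698 of the other libraries. All 13 genes of the mitochondrial genome that were tested, looked at after fits had called some of them, were highest there too. They summed to 238994 in that library (0.616% of its signal), led by MT-CO1 at 78864, against 6479 in EV replicate 2, 4416 and 5994 in WT and 5317 in G34W replicate 2 (0.0108 to 0.0154%). The part of these transcripts in any difference described here was not tested, and fold changes printed with their intervals, counts at an unadjusted p and medians over gene lists are given with and without it. In bulk RNA, a change in the number of cells of a type and a change in RNA per cell cannot be told apart.

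**Figure D1:**
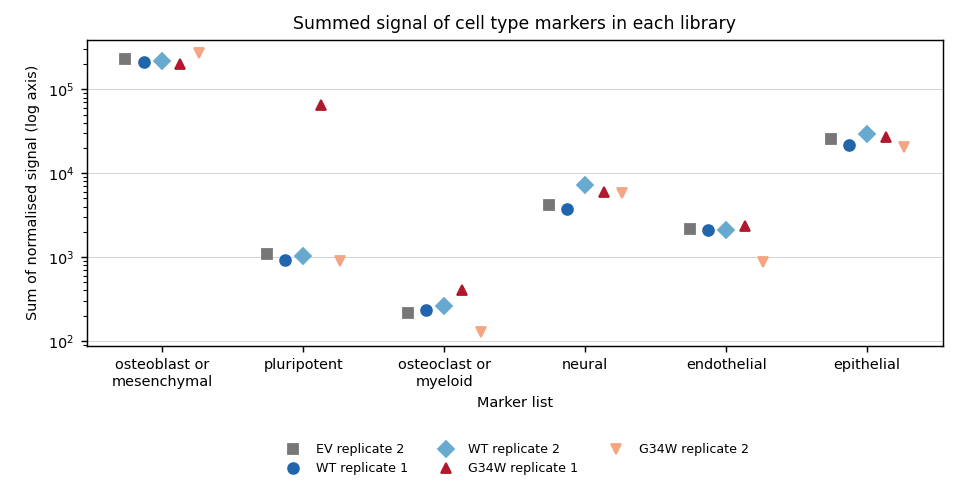
Summed normalised signal (log axis) of 6 lists of cell type markers in the 5 libraries, 1 point per library. The pluripotency sum of G34W replicate 1, 64990, lies far above the other 4, which are between 894 and 1089.

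The osteoblastic label was met in part. The 12 osteoblast and mesenchymal markers summed to between 202761 and 268665 in every library, led by the collagen gene COL1A2, which was at 90034 to 138799. The matrix gene SPARC was also abundant, at 72998 to 85409. COL1A1 was at 24757 to 43115, PDGFRB at 3131 to 4379 and THY1 at 2537 to 7023. TWIST1 was at 606 to 1070 and RUNX2 at 236 to 573. Later osteoblast genes differed in level: IBSP was listed at 0 in 4 of the 5 libraries, SP7 was at most 6.03 and BGLAP at most 44.9, whereas SPP1 was at 171 to 649. ALPL was at 1216 in G34W replicate 1 and at 107 to 428 in the others. Of 10 osteoclast and myeloid markers, TYROBP and OCSTAMP were listed at 0 in all 5 libraries and the summed signal was between 128 and 405. ACP5 led that list in G34W replicate 1, at 144. The 8 neural markers summed to between 3781 and 7303, nearly all from TUBB3, and SOX1 was at 0 in 3 libraries. In G34W replicate 1, which summed to 6023, 4 of the 8 were at more than 2 times any other compared library. They were DCX at 196 (at most 6.83 elsewhere), PAX6 at 37.2 (5.96), STMN2 at 23.2 (3.45) and NEUROD1, at 0.512 and 0 elsewhere. MAP2 was highest in EV replicate 2 (116) and ELAVL3 in WT replicate 1 (24.4). TUBB3 peaked in WT replicate 2 (7295) and SOX1 in G34W replicate 2 (2.27). The 5 endothelial markers summed to 876 in G34W replicate 2 and to between 2089.9 and 2324 in the other libraries, mostly from TEK, and CDH5 was at most 10.9.

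These cells held transcripts of ligands, receptors and coreceptors together. On average over the 5 libraries, 12 of the 31 genes were above a signal of 1000, 12 lay between 100 and 1000, and 7 were below 100. To compare levels between genes, the signal was divided by the length of the canonical transcript. Per kb, the plexin PLXNB2 was the highest of all 31, with a mean level of 2555 (1822 to 3299 over the libraries), followed by NRP1 at 2344 (1828 to 2774), SEMA3C at 1838 (1475 to 2225) and SEMA7A at 1451 (1166 to 2173). The ranges of neighbours in this order overlapped, except that the lowest SEMA7A level, 1166 per kb, lay above the highest of SEMA4C, which follows it, at 1106. The ligand and receptor of the osteoclast signal were of middle rank: SEMA4D had a mean level of 131 per kb, the ninth of 20 semaphorins, and PLXNB1 had 113 per kb, the fourth of 9 plexins and far below PLXNB2.

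**Figure D2:**
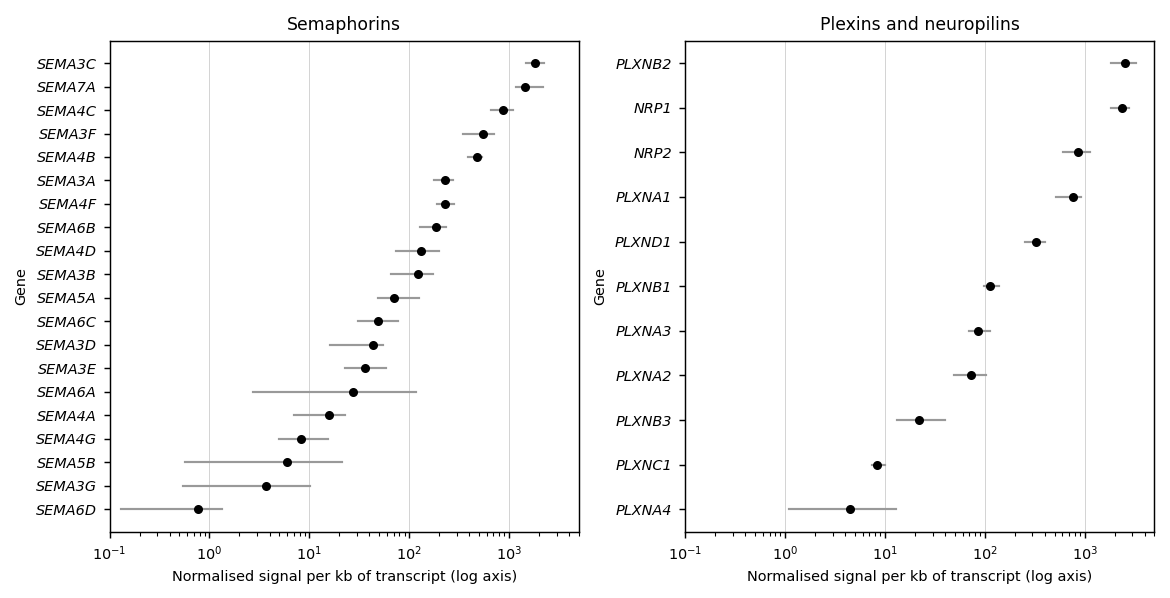
Mean normalised signal per kb of transcript (points, log axis) with the lowest and highest of the 5 libraries (lines), for semaphorins on the left and for plexins and neuropilins on the right. SEMA3C and SEMA7A lead the ligands with 1838 and 1451 per kb, and PLXNB2 and NRP1 lead the receptors with 2555 and 2344 per kb.

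Divided by class, secreted class 3 semaphorins made up 36.2 to 48.6% of the semaphorin level per kb in each library, class 4 made up 26.1 to 30.4% and classes 5 to 7 made up 21.9 to 37.2%. SEMA3C alone gave 62.3 to 68.4% of the class 3 level. B, C and D plexins gave 74.4 to 78.2% of the plexin level and A plexins the rest, and PLXNB2 was 82.0 to 85.9% of the former. SEMA7A gave 73.7 to 87.9% of classes 5 to 7 and PLXNA1 gave 79.9 to 85.9% of the A plexins, whereas SEMA4C gave 44.6 to 53.3% of class 4, the lowest such share of these 5 groups of genes.

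Abundant genes of the families varied little. Of the 12 with a mean above 1000, 11 differed by less than 2-fold between their lowest and highest library, and 10 of the 12 had their lowest value in G34W replicate 1. That library was the lowest for 13 of the 30 family genes tested (43.3%) and for 40% of all 16259 genes tested. Its median log2 difference from the WT mean was -0.27 over the 30 family genes tested and -0.17 over all genes tested. SEMA5B, SEMA6A, SEMA3G and PLXNA4, with means of 28.8, 188, 18.3 and 57.8, differed by more than 10-fold between libraries, whereas the rare PLXNC1 had the narrowest range of the 31, 1.35-fold.

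**Figure D3:**
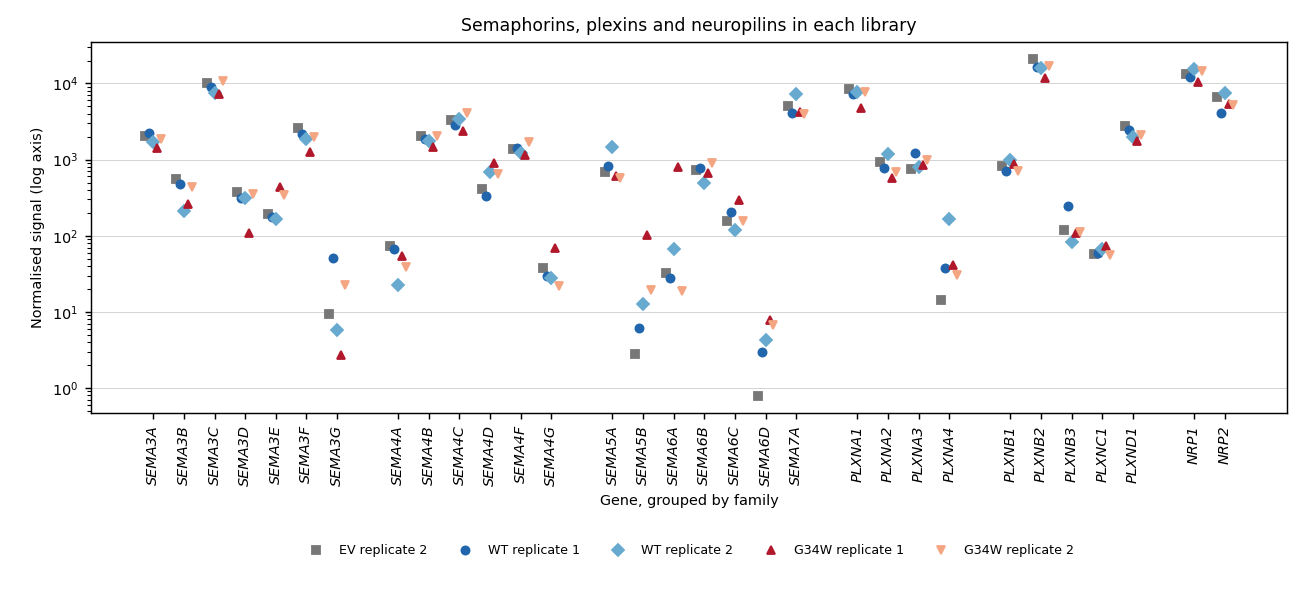
Normalised signal (log axis) of the 31 genes in the 5 libraries, grouped as class 3, class 4 and class 5 to 7 semaphorins, A plexins, other plexins and neuropilins, 1 point per library. The abundant genes form tight groups of points, whereas SEMA5B and SEMA6A have 1 point, G34W replicate 1 at 103 and 793, far above the rest.

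G34W was compared with WT to ask what the mutation does beyond extra histone H3.3. SEMA3E was higher in both G34W libraries than in any other, and SEMA5A and PLXNA2 were lower in both than in any other; the remaining family genes overlapped between the groups, apart from the rare SEMA5B and SEMA6D. None of these differences passed the test across all genes. With limma on log2(signal + 1), 0 of 16259 genes tested (0%) had an adjusted p under 0.05, and so 0 of the 30 family genes with a mean signal of at least 10; the lowest adjusted p among the 30 was 0.9998. At an unadjusted p under 0.05 there were 439 genes (2.7%), 265 higher and 174 lower in G34W, and 2 of the 30 family genes, SEMA3E higher and SEMA5A lower. Without G34W replicate 1 these counts were 226 genes (110 higher and 116 lower) and 0 of the 30, without G34W replicate 2 they were 1510 and 4, without WT replicate 1 they were 556 and 4, and without WT replicate 2 they were 287 and 1, SEMA4D. With 1 library left out there were 6 genes with an adjusted p under 0.05 without WT replicate 1, 1 without WT replicate 2, 13 without G34W replicate 2, of which 7 were mitochondrial, and 0 without G34W replicate 1, and none was a family gene. With 2 libraries on each side, the smallest two-sided p of an exact permutation test is 0.333 for a single gene.

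Both G34W libraries lay above both WT libraries for 2 of the 30 genes, SEMA3E and SEMA5B, and for 11.6% of all genes tested. Both lay below for another 2, SEMA5A and PLXNA2, and for 14.7% of all genes tested. Neither share of the 30 exceeds that of all genes. The median log2 fold change was -0.09 over the 30 and -0.06 over all genes tested. Without G34W replicate 1 both medians turned sign, to 0.007 over the 30 (14 of 30 lower) and 0.042 over all genes tested. In the same order, they were -0.27 and -0.17 without G34W replicate 2, and -0.036 and -0.106 without WT replicate 1. The median over all genes tested also turned to 0.010 without WT replicate 2 and to 0.013 after rescaling, beside -0.053 and -0.022 over the 30. Of the 19 semaphorins tested, 11 were higher in G34W (median log2 fold change 0.10) and 8 were lower (42.1%, beside 56.9% of all genes tested). The count of higher ones was 13 of 19 without G34W replicate 1 (median 0.19) and 12 of 19 without WT replicate 1 (median 0.23). It was 13 of 19 after rescaling (median 0.17). Without G34W replicate 2 it was 8 of 19 (median -0.19), and without WT replicate 2 it was 9 of 19 (median -0.011). Its direction thus depends on single libraries. Of the 11 plexins and neuropilins, 10 were lower (median log2 fold change -0.21), beside 56.9% of all genes tested. After each library was rescaled to a common median ratio, 10 of 11 receptor genes were lower (median -0.14), beside 48.4% of all genes tested. The count was 8 of 11 without G34W replicate 1 (median -0.10), beside 43.5% of all genes tested, and 8 of 11 without WT replicate 2 (median -0.22), beside 48.9%. It was 9 of 11 without G34W replicate 2 (median -0.36), beside 63.2%, and 9 of 11 without WT replicate 1 (median -0.34), beside 59.4%. Whether ligands and receptors differ from each other was not tested. Most of these receptor differences were smaller than their standard errors.

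**Figure D4:**
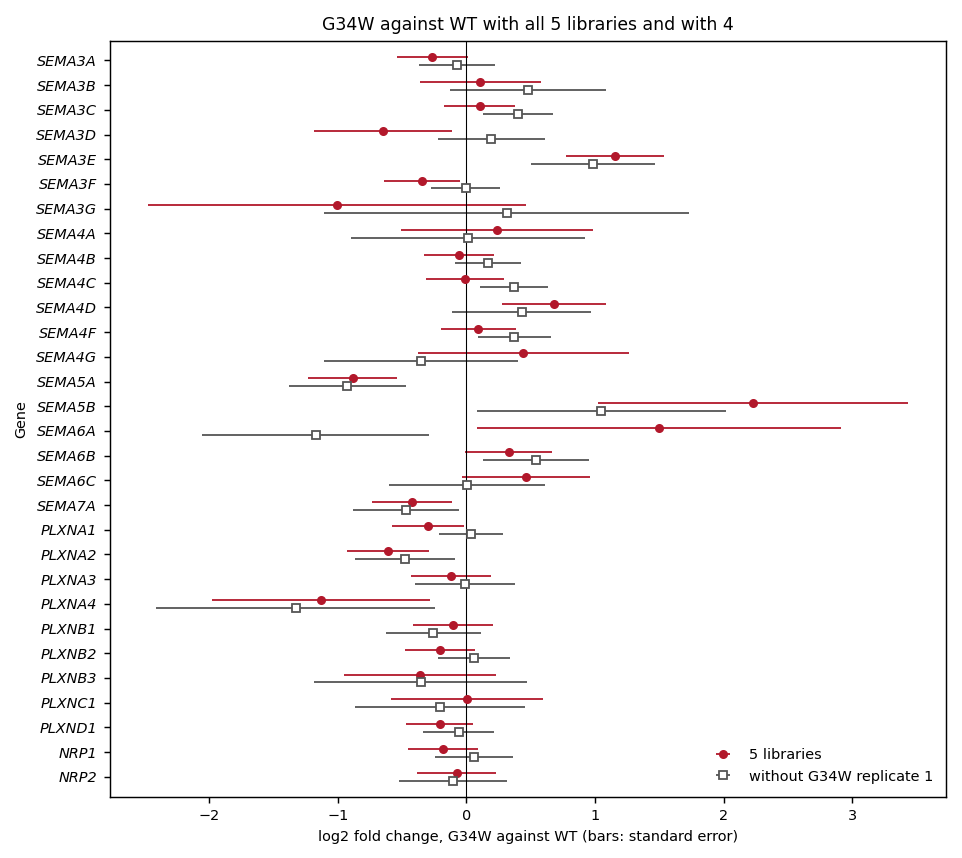
Log2 fold change of G34W against WT with its standard error (bars) for the 30 genes tested, from all 5 libraries (filled circles) and without G34W replicate 1 (open squares). SEMA3E lies at 1.16 and 0.99, SEMA5A at -0.88 and -0.93, and SEMA6A changes sides, to -1.17 without that library.

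Among the secreted class 3 semaphorins, SEMA3E (ENSG00000170381) is a ligand that binds plexin D1 without a neuropilin and repels growing vessels. Its signal was 191 in EV replicate 2, 176 and 166 in the WT libraries, and 431 and 339.9 in the G34W libraries. Both mutant libraries stood above the other 3, which lay close together. The group means were 171 ± 7.12 for WT and 385 ± 64.2 for G34W (SD, n = 2 each), a ratio of 2.25. The log2 fold change was 1.16 (SE 0.38, 95% confidence interval 0.29 to 2.02; adjusted p = 0.9998, limma), and 0.99 (SE 0.48) without G34W replicate 1, the library with the pluripotency transcripts. G34W replicate 2 by itself was at 1.99 times the WT mean.

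SEMA3E lies on chromosome 7 (GRCh38.p14, 83363238 to 83649139), next to SEMA3A (83955777 to 84492725) and between SEMA3C (80742538 to 80922389) and SEMA3D (84995553 to 85250243). These neighbours did not share its pattern, as their values below show. Promoters of 27 of the 31 genes were found in the RefSeq table for GRCh38.p14, each running from 250 bases before to 50 bases after a start; where a gene had several, the first listed was taken. NRP1, SEMA3A, SEMA6A and SEMA6B had no entry. Both strands were searched for the TATA box (TATAAA), the CCAAT box, the GC box (GGGCGG), the E-box core (CACGTG) and the AP-1 site (TGANTCA). The promoters of SEMA3E, of the oppositely placed SEMA5A and of SEMA4D, the study's own ligand, are shown with every match in capitals.
SEMA3E, chr7:83649090-83649389, minus strand: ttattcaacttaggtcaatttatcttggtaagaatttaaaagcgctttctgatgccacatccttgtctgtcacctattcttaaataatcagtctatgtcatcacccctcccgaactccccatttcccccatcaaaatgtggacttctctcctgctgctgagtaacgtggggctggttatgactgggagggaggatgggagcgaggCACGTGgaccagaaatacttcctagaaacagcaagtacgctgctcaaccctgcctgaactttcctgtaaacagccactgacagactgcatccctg
SEMA5A, chr5:9546026-9546325, minus strand: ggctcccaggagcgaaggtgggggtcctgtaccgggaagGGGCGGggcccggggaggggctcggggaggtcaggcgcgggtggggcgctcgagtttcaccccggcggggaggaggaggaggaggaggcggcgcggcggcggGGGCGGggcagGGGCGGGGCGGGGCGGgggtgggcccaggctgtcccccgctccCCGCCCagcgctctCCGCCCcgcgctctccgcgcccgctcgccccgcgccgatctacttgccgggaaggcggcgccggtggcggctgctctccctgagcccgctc
SEMA4D, chr9:89495607-89495906, minus strand: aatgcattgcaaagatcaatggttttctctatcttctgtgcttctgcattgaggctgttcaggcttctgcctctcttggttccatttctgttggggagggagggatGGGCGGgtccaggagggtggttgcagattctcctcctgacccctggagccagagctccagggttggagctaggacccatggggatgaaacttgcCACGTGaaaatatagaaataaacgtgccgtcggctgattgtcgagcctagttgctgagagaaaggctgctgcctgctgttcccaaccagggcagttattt
SEMA3E and SEMA4D each held CACGTG, with its first base at -45 and -50 from the start. This hexamer was in 7.26% of all 35116 promoters and in 3 of the 27, SEMA6D being the other. GGGCGG was in 45% of all promoters and in 19 of the 27 (70.4%); SEMA5A held 7 matches, of which those printed as 1 run overlap, SEMA4D held 1 and SEMA3E none. The SEMA5A window held 39 CpG dinucleotides, and the SEMA3E and SEMA4D windows 6 each, beside a median of 14 over all promoters. CCAAT was in 34.6% of all promoters and 7 of the 27, TATAAA in 11.5% and 0 of the 27, and TGANTCA in 7.71% and 1 of the 27, PLXNC1. A match describes the letters of the window and shows no binding.

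SEMA3C, the most abundant ligand per kb and a partner of both neuropilins, had a signal of 10245 in EV replicate 2, 8996 and 7525 in WT, and 7191 and 10846 in G34W. The G34W libraries were the lowest and the highest of the 5. SEMA3A, the osteoblast ligand of NRP1, was at 2029 in EV replicate 2, 2251 and 1723 in WT, and 1436 and 1869.7 in G34W. SEMA3F, which prefers NRP2, was at 2585 in EV replicate 2, 2196 and 1849 in WT, and 1256 and 2005 in G34W. For both, the groups overlapped and G34W replicate 1 was the lowest library. Of the other class 3 genes, SEMA3D was at 371 in EV replicate 2, 313 and 309 in WT, but 110.3 in G34W replicate 1 and 356 in replicate 2. The low value was thus limited to the library with the pluripotency transcripts. SEMA3B ranged from 208 to 552 and SEMA3G from 2.72 to 51.4, both with overlapping groups. SEMA3D, SEMA6A, SEMA6D, SEMA6C, PLXNA4 and DPYSL5 were singled out after their values were seen.

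Among class 4 semaphorins, which are membrane proteins that can be shed, SEMA4D (ENSG00000187764; chromosome 9, 89360787 to 89498113) had a signal of 416 in EV replicate 2, 334 and 682 in WT, and 913 and 643 in G34W. Both G34W libraries exceeded EV and WT replicate 1, but WT replicate 2 lay above G34W replicate 2, so that the groups overlapped. The means were 508 ± 246 for WT and 778 ± 191 for G34W (SD, n = 2 each), and the log2 fold change was 0.68 (SE 0.40, 95% confidence interval -0.23 to 1.60; adjusted p = 0.9998, limma). Without G34W replicate 1 it was 0.43 (SE 0.54). It also depended on the WT libraries, at 0.17 without WT replicate 1 and 1.196 without WT replicate 2. The 10 osteoclast and myeloid markers summed to 213 in EV replicate 2, 232 and 259 in WT, and 405 and 128 in G34W. SEMA4D and this sum were thus both highest in G34W replicate 1. There, 4 of the 10 markers had their highest value (CD14, ACP5, CALCR and ITGAM, at 77.8, 144, 31.2 and 46.9). Another 4 were listed at 0, TYROBP and OCSTAMP among them. PTPRC was lowest there, at 4.90 against 9.52 to 25.4 elsewhere. CSF1R, at 99.5, lay below WT replicate 2, at 142.6. The part of the osteoclast and myeloid transcripts in the SEMA4D values was not tested.

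SEMA4C, a ligand of plexin B2, was the most abundant of class 4, at 3325 in EV replicate 2, 2853 and 3441 in WT, and 2387 and 4040.2 in G34W. SEMA4B was at 2039.5 in EV replicate 2, 1846 and 1738 in WT, and 1471 and 2013 in G34W. SEMA4F was at 1373 in EV replicate 2, 1419.8 and 1228 in WT, and 1159.7 and 1711 in G34W. In all 3, the G34W libraries lay on either side of both WT libraries. SEMA4A (22.7 to 74.3) and SEMA4G (22.2 to 69.0) were low, with overlapping groups.

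Among classes 5 to 7, SEMA5A (ENSG00000112902; chromosome 5, 9035033 to 9546075) carries thrombospondin repeats and can act as an attractive or a repellent cue. Its signal was 689 in EV replicate 2, 822 and 1472 in WT, and 612 and 579 in G34W. Both mutant libraries were below the other 3 and close to each other, with EV the next. The means were 1147 ± 459.7 for WT and 595 ± 23.8 for G34W (SD, n = 2 each), a ratio of 0.519. The log2 fold change was -0.88 (SE 0.34, 95% confidence interval -1.66 to -0.11; adjusted p = 0.9998, limma), and -0.93 (SE 0.45) without G34W replicate 1. The size of the difference owed much to WT replicate 2: without that library it was -0.465.

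SEMA7A, which is anchored by a lipid and signals through integrins and plexin C1, showed the same high WT replicate 2: 4985 in EV replicate 2, 4043 and 7337 in WT, and 4191 and 3937 in G34W. Here WT replicate 1 lay between the mutant libraries, so that the groups overlapped. SEMA6B, a ligand of A plexins, was at 730.2 in EV replicate 2, 778 and 499 in WT, and 676 and 907 in G34W, also overlapping.

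SEMA5B and SEMA6A were both highest in the library that stood apart. SEMA5B had a signal of 2.78 in EV replicate 2, 6.09 and 12.6 in WT, and 103 and 19.3 in G34W. Both mutant libraries were above the rest, but replicate 1 was at 11.1 times the WT mean and replicate 2 at 2.07 times. The log2 fold change was 2.23 (SE 1.21, 95% confidence interval -0.50 to 4.96; adjusted p = 0.9998, limma) and 1.05 (SE 0.97) without replicate 1. SEMA6A, a transmembrane ligand of plexins A2 and A4, was at 32.7 in EV replicate 2, 27.9 and 66.7 in WT, 793 in G34W replicate 1 and 18.6 in replicate 2. The 2 libraries of the mutant were thus the highest and the lowest of the 5. SEMA6C was at 299 in G34W replicate 1 and between 120.0 and 206 in the others. SEMA6D missed the minimum for testing, with 0.791 in EV replicate 2, 2.98 and 4.22 in WT, and 7.90 and 6.70 in G34W.

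**Figure D5:**
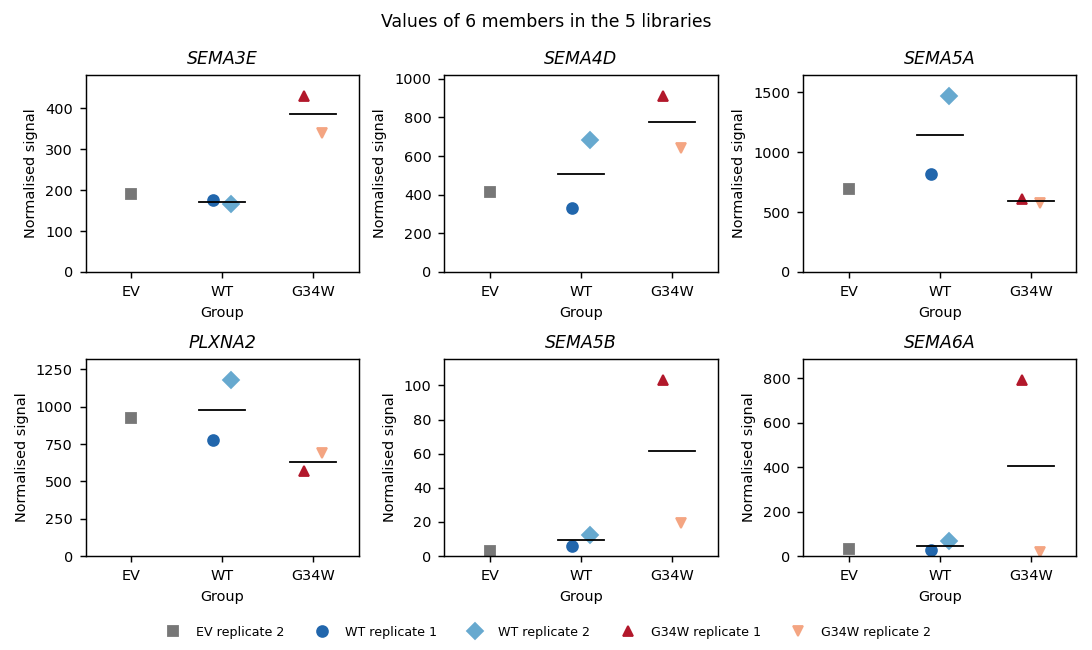
Normalised signal of 6 genes in EV, WT and G34W (linear axes from 0), 1 point per library, with lines at the means of the groups with 2 libraries. SEMA3E is higher in both G34W libraries (431 and 339.9), SEMA5A and PLXNA2 are lower in both, SEMA4D overlaps, and SEMA6A is high in G34W replicate 1 alone (793).

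Of the A plexins, which serve class 3 ligands with neuropilins and class 6 ligands directly, PLXNA1 was the most abundant, at 8576 in EV replicate 2, 7239 and 7676 in WT, and 4823 and 7626 in G34W. PLXNA2 (ENSG00000076356) was at 926 in EV replicate 2, 777 and 1180.3 in WT, and 572 and 687 in G34W. PLXNA1 overlapped between the groups, whereas both mutant libraries were the lowest of the 5 for PLXNA2, with means of 979 ± 285 in WT and 630 ± 81.2 in G34W (SD, n = 2 each). The log2 fold change of PLXNA2 was -0.61 (SE 0.32, 95% confidence interval -1.33 to 0.11; adjusted p = 0.9998, limma) and -0.48 (SE 0.39) without G34W replicate 1. Without WT replicate 2 it was -0.31. PLXNA3 was at 755 in EV replicate 2, 1227 and 797 in WT, and 844 and 982 in G34W. PLXNA4 was low, at 14.2 in EV replicate 2, 37.7 and 165 in WT, and 41.0 and 30.9 in G34W. Its single high value came from WT replicate 2, the library in which SEMA5A and PLXNA2 were also highest. WT replicate 2 was the highest library for 7 of the 30 family genes tested (23.3%) and for 30.8% of all genes tested.

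PLXNB1 (ENSG00000164050; chromosome 3, 48403854 to 48430310), the receptor of SEMA4D, was at 815 in EV replicate 2, 705 and 989 in WT, and 864 and 699 in G34W. The 5 values lay within a 1.42-fold range and the groups overlapped, with means of 847 ± 200 for WT and 781 ± 117 for G34W (SD, n = 2 each). The log2 fold change was -0.10 (SE 0.31, 95% confidence interval -0.81 to 0.60; adjusted p = 0.9998, limma) and -0.26 (SE 0.37) without G34W replicate 1. It turned to 0.14 without WT replicate 2 and to 0.049 without G34W replicate 2. PLXNB2, a receptor of class 4 ligands, was at 21144 in EV replicate 2, 16322 and 15939.5 in WT, and 11677 and 16777 in G34W. PLXND1, the SEMA3E receptor, was at 2779 in EV replicate 2, 2474 and 2009 in WT, and 1744 and 2137 in G34W. Both overlapped between WT and G34W, and EV had the highest value of both. PLXNB3 (81.8 to 246) and PLXNC1 (55.1 to 74.4) were low.

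Both neuropilins were well transcribed. NRP1, a coreceptor of SEMA3A and of vascular endothelial growth factor, was at 13511 in EV replicate 2, 12209.6 and 15646 in WT, and 10309 and 14421 in G34W. NRP2 was at 6706 in EV replicate 2, 4076 and 7473 in WT, and 5323 and 5139.8 in G34W. For NRP2 the G34W libraries lay between the WT libraries. The log2 fold changes of SEMA3A, SEMA3C, SEMA3F, SEMA4B, SEMA4C, SEMA4F, SEMA6B, SEMA7A, PLXNA1, PLXNA3, PLXNB2, PLXND1, NRP1 and NRP2 lay between -0.42 (SEMA7A) and 0.33 (SEMA6B). Without WT replicate 2, SEMA7A was at 0.007 and SEMA6B at 0.010, and without WT replicate 1 they were at -0.85 and 0.65.

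The other genes of the pathway were read from a list of 61, of which 60 were tested: partners of plexins such as MET and ERBB2, collapsin response mediators, MICAL oxidoreductases, exchange factors, small GTPases, kinases, cytoskeletal proteins and the proteases that process semaphorins. None had an adjusted p under 0.05 in G34W against WT with limma, and at an unadjusted p under 0.05 there were 3 of 60, all higher (5%, beside 2.7% of all genes tested). It was 1 of 60 without G34W replicate 1 (beside 1.39% of all genes tested), 7 of 60 without G34W replicate 2, 5 of them higher (beside 9.29%), 1 without WT replicate 1 (beside 3.42%) and 2 without WT replicate 2 (beside 1.77%). It was 1 after rescaling (beside 2.61%), and 3 with a replicate block, 2 of them higher (beside 4.4%). The median log2 fold change was -0.09, with 38 lower and 22 higher, but it turned to 0.044 without G34W replicate 1, with 24 lower and 36 higher, and to 0.014 without WT replicate 2, with 29 lower and 31 higher.

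The 5 pathway genes with the largest log2 fold changes among those with a mean signal of at least 50 were CRMP1, RND2, FLT1, KDR and FES. CRMP1, a cytosolic mediator of SEMA3A responses, was at 239.8 in EV replicate 2, 191 and 266 in WT, 1722 in G34W replicate 1 and 229 in replicate 2. RND2, a small GTPase, was at 302 in EV replicate 2, 307 and 310.4 in WT, and 1479.9 and 378 in G34W. KDR, a growth factor receptor that pairs with neuropilins, was at 54.5 in EV replicate 2, 78.3 and 76.3 in WT, and 656 and 26.6 in G34W. In all 3, the high value was that of the library with the pluripotency transcripts, and in replicate 2 RND2 was at 1.22 times the WT mean and KDR at 0.344 times, with CRMP1 between the WT libraries. FLT1, a related receptor, was at 203 in EV replicate 2, 259 and 404 in WT, and 831 and 461 in G34W. FES, a kinase downstream of A plexins, was at 329.6 in EV replicate 2, 176 and 139 in WT, and 217 and 234 in G34W, above both WT libraries but below EV. DPYSL5, another response mediator, was at 8.37 in EV replicate 2, 4.46 and 3.90 in WT, and 87.2 and 40.3 in G34W, so that it was high in both mutant libraries.

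WT was compared with EV to ask what extra wild-type histone H3.3 does, and G34W with EV for the mutant; the comparisons share the EV library, and each also shares a group with the comparison above. In WT against EV, limma called 0 of 16259 genes (0%) at an adjusted p under 0.05 and 0 of the 30 family genes; at an unadjusted p under 0.05 there were 157 genes (0.966%) and 1 family gene, PLXNA4, whose EV value of 14.2 was the lowest of the 5. That family count was 3 without WT replicate 1 (beside 1.65% of all genes tested) and 0 without WT replicate 2 (0.664%), G34W replicate 1 (1.4%) or G34W replicate 2 (1.37%). Without WT replicate 1, 3 genes had an adjusted p under 0.05, none of them a family gene. The median log2 fold change was -0.05 over the 30 and 0.02 over all genes tested. It moved to -0.18 and 0.084 without WT replicate 1, and to -0.16 and -0.038 without WT replicate 2. In G34W against EV, limma called 0 genes (0%) and 0 family genes. An unadjusted p under 0.05 was found for 317 genes (1.95%) and for 1 family gene, SEMA5B, and for 0 family genes without G34W replicate 1 (beside 232 genes, 1.43%) and 6 without G34W replicate 2 (beside 1311 genes, 8.06%). The median was -0.15 over the 30 and -0.03 over all genes tested, and without G34W replicate 1 it was -0.084 over the 30 and turned to 0.062 over all genes tested. Without G34W replicate 2 the medians were -0.29 and -0.14. SEMA3E was at 191 in EV and SEMA5A at 689, both closer to 1 of the groups than to the other: EV lay near WT for SEMA3E, and nearer the G34W mean for SEMA5A.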

How the data were processed

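RNA was selected for poly(A). The sources describe library making in 2 ways, with a NEBNext kit that keeps strand and with an Illumina TruSeq guide for paired ends, and do not settle which was used here. The authors estimated transcript abundance with kallisto on Ensembl GRCh38 models (release 99), summed it per gene and normalised it with DESeq2 (versions not given in the sources used here). The deposited unit is this normalised signal per gene, which is not whole reads and not divided by gene length; reads could not be recovered, so no count test was run and depth is unknown. Values were transformed as log2(signal + 1), which understates the change of low genes. The 16259 genes with a mean of at least 10 over the 5 libraries were fitted together in limma 3.58.1 (R 4.3.3) with a variance trend and no covariates, and p-values were adjusted by Benjamini-Hochberg over all of them at a threshold of 0.05. Standard errors are moderated. The fit was tested on simulated data that held no outlying library, so that its power in these data was not measured. Tables and figures were made with Python 3.11.15, pandas 2.3.3, numpy 2.4.6 and matplotlib 3.10.9. Transcript lengths are those of canonical GENCODE transcripts. Genes named in full were SEMA4D and PLXNB1, those past the threshold, and those whose G34W and WT libraries did not overlap with an absolute log2 fold change of at least 0.5. Both neuropilins were also named, with the 3 most abundant genes of each other class (class 3, class 4 and class 5 to 7 semaphorins, A plexins and other plexins). Pathway genes were the 5 with the largest absolute log2 fold change among those with a mean of at least 50. The members and lists were chosen with earlier results of these data known. Alternatives were another pseudocount (0.1), no filter, no variance trend, fewer or all 6 libraries, rescaled libraries, a replicate block and each library left out.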

Additional observations from a re-analysis of the deposited data

Results flagged for a closer look

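EV replicate 1, used only in the alternative with all 6 libraries, held signal above every compared library for 3 of the 31 genes. NRP1 was at 333424 there (13511 in EV replicate 2), PLXNC1 at 3079 (57.7) and SEMA4G at 1557 (37.9). NRP1 and SEMA4G lie on chromosome 10 and PLXNC1 on chromosome 12. In that library 25 of the 31 genes are listed at 0, and its signal summed to 157595150.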

How the results depend on the processing

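Family genes called, and pathway genes called in G34W against WT, stayed at 0 in limma under every alternative run. With a pseudocount of 0.1, 1 gene was called in WT against EV and 1 in G34W against EV, PPP1R11 in both. Leaving out 1 library gave 0 to 13 genes called in G34W against WT, 0 to 3 in WT against EV and 0 to 0 in G34W against EV; no value exists for the EV comparisons without EV replicate 2. The replicate block gave 0 genes called in each comparison; the numbers pair libraries in name only (correlation of deviations across genes 0.095, 2 pairs). At an unadjusted p under 0.05, the 439 genes of G34W against WT became 715 with the block, 791 without a filter, 25 with all 6 libraries and 226 to 1510 with 1 library left out; the 157 of WT against EV became 369, 917, 40 and 108 to 268; the 317 of G34W against EV became 275, 1017, 91 and 232 to 1311. Without a variance trend they were 486, 377 and 446. Without a filter 24560 genes were tested, all 31 family genes among them, instead of 16259. The family count in G34W against WT was 1 without a filter (beside 3.22% of all genes tested) and 1 without the trend (2.99%), SEMA3E in both. With all 6 libraries it was 0 (0.154%). In G34W against WT, higher and lower genes were 374 and 417 without a filter, 249 and 237 without the trend and 370 and 345 with the block, beside 265 and 174. Rescaling turned the log2 fold changes of SEMA4B to 0.011 and SEMA4C to 0.056. Leaving out 1 library moved log2 fold changes across 0 for SEMA4B (-0.28 to 0.17), SEMA4C (-0.39 to 0.37), SEMA4F (-0.19 to 0.37), SEMA3C (-0.19 to 0.40), SEMA7A (-0.85 to 0.007), PLXNA1 (-0.63 to 0.033), PLXNA3 (-0.43 to 0.19), PLXNB1 (-0.35 to 0.14), PLXNB2 (-0.47 to 0.057), NRP1 (-0.42 to 0.061) and NRP2 (-0.52 to 0.36); the cause was not tested. SEMA3E (0.99 to 1.33), SEMA5A (-1.31 to -0.46), SEMA5B (1.05 to 3.41), PLXNA2 (-0.91 to -0.31) and SEMA4D (0.17 to 1.196) kept their sign. So did SEMA6B (0.010 to 0.649), SEMA3A (-0.458 to -0.072), SEMA3F (-0.682 to -0.007) and PLXND1 (-0.358 to -0.058). The edgeR alternative was not run, because whole reads were not recovered. With a group cut to 1 library, that library is assumed to vary like the others. With 2 libraries per group and unknown depth, small differences cannot be resolved.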
